A study of Mus musculus with 14 samples.

Results

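The enzymes that make and use α-ketoglutarate were followed by RNA sequencing in mouse embryonic stem (ES) cells entering a dormancy-like state. The set holds 8 genes of the 54446 gene identifiers in the deposited files: *Idh1*, *Idh2*, *Idh3a*, *Idh3b*, *Idh3g*, *Ogdh*, *Glud1* and *Got2*. They were chosen by name as makers and users of the co-substrate of the TET enzymes. All 8 were listed in every library and passed the filter on low values used for the tests.

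α-Ketoglutarate is an intermediate of the tricarboxylic acid (TCA) cycle, formed from isocitrate by isocitrate dehydrogenases or from glutamate by glutamate dehydrogenase and aminotransferases, and consumed by the 2-oxoglutarate dehydrogenase complex. It is also the co-substrate of TET enzymes, which oxidize methylated cytosine in DNA, and of many histone demethylases, all of which release succinate. In ES cells the balance of α-ketoglutarate and succinate is known for its bearing on DNA and histone methylation.

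All 14 libraries were of E14 mouse ES cells, a male embryonic stem cell line, and differed in genotype and in time with Ink128, an inhibitor of the growth kinase mTOR (the treatment is called mTORi). Wild-type (WT) cells were profiled untreated (0 h) and after 24, 72 and 144 h of mTORi, and *Tet1/2* double-knockout (DKO) cells untreated and after 24 and 72 h, with 2 libraries in each of the 7 groups. The DKO line came from E14 cells in which *Tet1* and *Tet2* were cut with Cas9 and single cells were sorted out to grow lines, so that a difference between genotypes is one between these lines. DKO cells at 144 h were not analysed here. The time points of a replicate were handled in parallel, according to the study's reporting statement. Total RNA of sorted cells received ERCC transcripts, synthetic RNAs added as a yardstick, and ribosomal RNA was depleted.

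Values are given on 2 scales. Plain TPM (a level per transcript length, scaled to sum to 1000000 in each library) are the deposited values, and give the share of a gene in the RNA measured over all annotated genes. Spike-in normalized TPM are plain TPM times 1 factor per library, which reached 2.81 and was 1 in the lowest library and was recovered from the study's normalized table. An error in a factor moves all genes of its library together. RNA was taken from a set number of sorted cells, and a bulk level cannot tell fewer cells expressing a gene from less of its RNA in each cell. The replicate factors were 1.43 and 1.85 in WT cells at 24 h, 2.24 and 1.36 in DKO cells at 24 h, and 2.53 and 1.73 in DKO cells at 72 h, so replicates of those groups can spread differently on the 2 scales. TPM keep no read depth, which is therefore unknown here, and precision is given by the spread of replicates.

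The genotype labels were checked first. *Tet2* read 203 to 210 spike-in normalized TPM in WT and 52.7 to 53.9 in DKO cells at 0 h, and the DKO libraries lay between 27.1 and 55.0 at all times. *Tet1* was lower in DKO cells in plain TPM, with 147 to 152 against 191 to 197 at 0 h, but on the spike-in scale its libraries overlapped (349 and 427 against 403 and 416). Transcripts can be made from a cut gene, so the level of *Tet1* RNA is only a partial check. The 8 ES cell markers, *Pou5f1* and *Sox2* among them, summed to 4331 to 6596 plain TPM in every library. The 4 primitive endoderm markers (*Gata6*, *Gata4*, *Sox17* and *Pdgfra*) summed to 52.6 to 102 plain TPM in WT and 14.4 to 43.4 in DKO cells at 24 h, and to at most 20.8 in the libraries of the other times. The markers of trophectoderm, neuroectoderm, mesendoderm and fibroblasts each summed to at most 17.7 plain TPM.

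In untreated WT cells the enzymes ranked as follows in plain TPM, a scale on which levels can be set side by side between genes. *Glud1*, the mitochondrial glutamate dehydrogenase, was the highest with 216 and 243 TPM in the 2 libraries. *Got2* (120 to 130), *Idh3g* (113 to 130) and *Idh3b* (113 to 126) came next, with overlapping libraries, so their order is not set. *Idh1* lay at 97.8 to 101 and *Idh3a* at 76.9 to 80.3. *Ogdh* (67.8 to 70.4) and *Idh2* (63.1 to 71.6) were lowest and overlapped. *Glud1* was the highest of the set in all 7 groups.

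By 144 h of mTORi the order in WT cells had changed. *Idh1* was now the lowest of the set, at 35.0 and 35.2 plain TPM, below *Ogdh* at 51.1 and 51.5. By its mean *Idh2* went from rank 8 to rank 5 as *Idh1* went from 5 to 8, with *Idh2* (65.8 to 68.5) overlapping *Idh3a* (65.8 to 67.6). *Idh3g* (148 to 155), *Got2* (123 to 126) and *Idh3b* (110 to 117), which overlapped at 0 h, did not overlap at 144 h. The share of *Idh1* in the summed plain TPM of the 8 genes was 10.9% on average at 0 h and 4.05% at 144 h. In DKO cells at 72 h *Idh1* held 8.32% of the sum (7.33% to 9.30%), against 6.31% in WT cells at that time (5.25% to 7.36%), with overlapping libraries. The summed plain TPM of the set itself moved little, from 898 to 922 in WT cells at 0 h to 853 to 878 at 144 h.

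**Figure D1:**
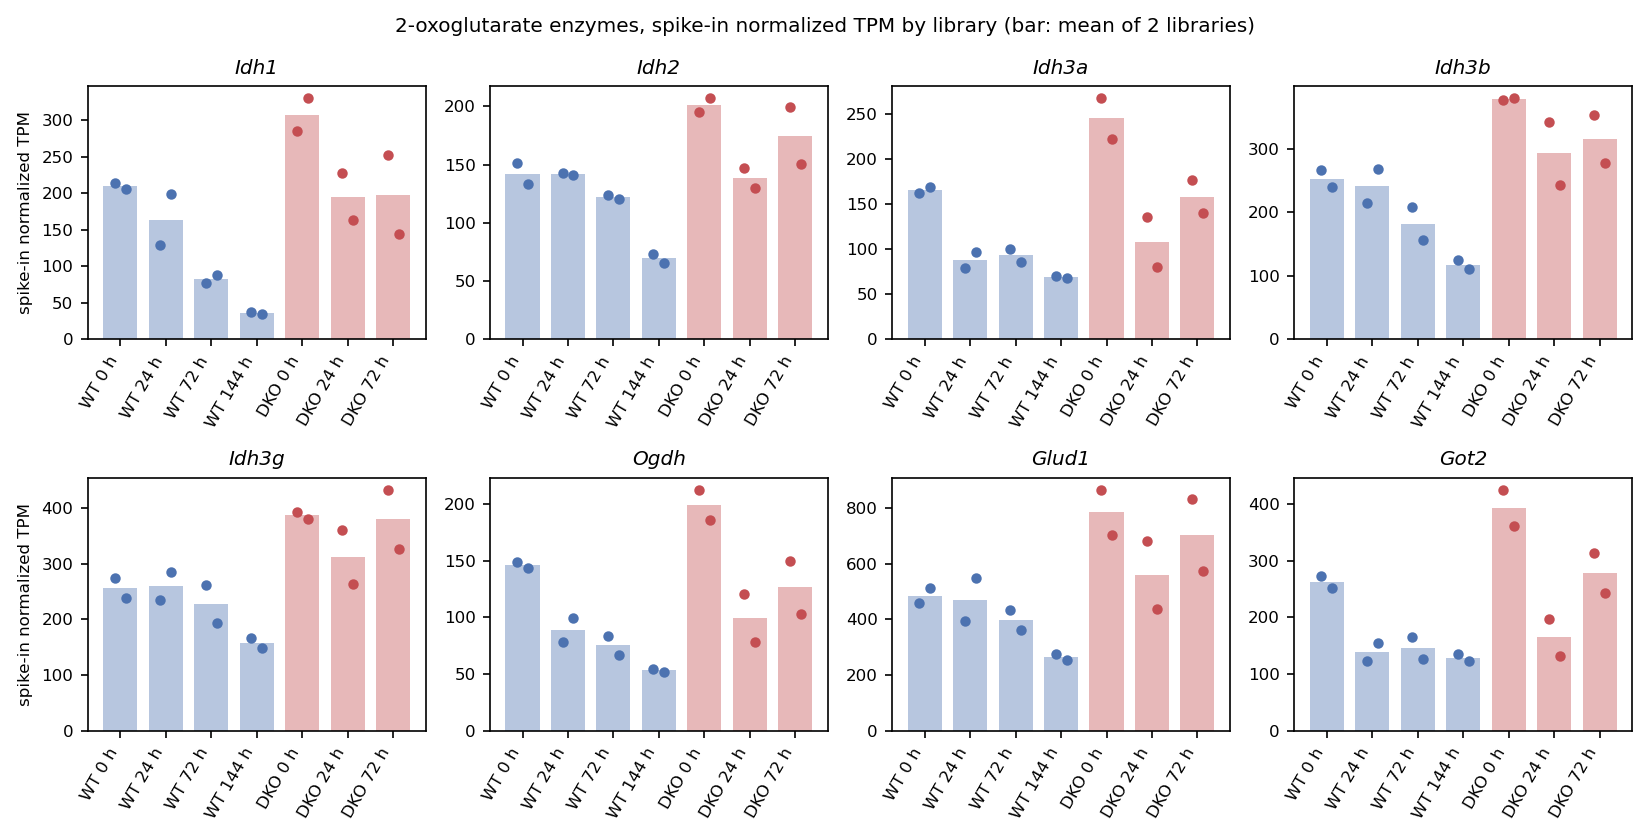
Spike-in normalized TPM of the 8 enzymes in each library (points) by group (x axis), with bars for the mean of 2 libraries, WT in blue and DKO in red. Every enzyme is lowest in WT cells at 144 h apart from *Got2*, whose WT libraries at 24, 72 and 144 h overlap, and *Idh1* runs from 35.0 to 330.4, the widest of the set as a ratio.

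*Idh1* encodes the NADP-dependent isocitrate dehydrogenase of cytosol and peroxisomes, and *Idh2* its mitochondrial counterpart, which catalyses the same reaction. *Idh1* is a protein-coding gene on the reverse strand of chromosome 1 (GRCm38, chr1:65158616-65186500), and *Idh2* lies on the reverse strand of chromosome 7 (chr7:80094846-80115392). *Idh2* overlaps *Gm45203* on its own strand, which reached at most 1.34 TPM. The sequences just upstream of both genes are shown because the results turn on this pair, which differs in its course while catalysing 1 reaction. They are from the RefSeq promoter table (build GRCm38.p6), written 5′ to 3′ on the strand of the gene, and end at the base before the annotated gene. Capitals mark matches to a GC box (GGGCGG or its complement CCGCCC) or a CCAAT box (CCAAT or ATTGG).
Idh1, chr1:65186501-65186729, reverse strand: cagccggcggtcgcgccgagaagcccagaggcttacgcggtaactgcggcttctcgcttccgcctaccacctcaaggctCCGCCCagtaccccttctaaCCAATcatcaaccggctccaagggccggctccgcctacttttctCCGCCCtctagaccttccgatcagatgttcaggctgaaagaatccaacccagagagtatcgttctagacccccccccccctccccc
Idh2, chr7:80115393-80115600, reverse strand: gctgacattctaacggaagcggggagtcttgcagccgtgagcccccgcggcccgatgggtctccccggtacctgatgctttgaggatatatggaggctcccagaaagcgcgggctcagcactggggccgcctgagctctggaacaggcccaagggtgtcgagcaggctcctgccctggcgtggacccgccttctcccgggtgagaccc

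The *Idh1* stretch of 229 bases holds 3 matches and is 62.0% G or C, and the *Idh2* stretch of 208 bases holds 0 and is 66.3% G or C. Within the full RefSeq windows of 300 bases (250 before to 50 after a start site), which reach into the annotated gene, *Idh2* also held both motifs. They lay upstream of its RefSeq start site, at −44 (CCAAT box) and at −38 and −18 (GC boxes). The printed *Idh2* stretch ends before these motifs are complete, so its 0 depends on where it was cut. The 7 members with an entry had 13 windows, 6 of them of *Ogdh*. GC boxes were found in 8 of the 13 (of *Idh1*, *Idh2*, *Ogdh* and *Glud1*) and in 35.7% of all 32851 windows. CCAAT boxes were found in 9 of the 13 (of *Idh1*, *Idh2*, *Idh3b* and *Ogdh*) and in 37.4% of all windows. An E-box (CACGTG, the core of sites read by MYC and by TFE3) was found in 3 of the 13, each of *Ogdh*, and in 7.15% of all windows. Windows of 1 gene can overlap. These letters describe the windows and do not show that a factor binds there.

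*Idh1* fell in WT cells over the course of mTORi. Its spike-in normalized TPM were 214 and 206 at 0 h, 129 and 199 after 24 h, 76.4 and 88.1 after 72 h, and 37.6 and 35.0 after 144 h. The libraries of 72 h lay below all those of 0 and 24 h, and those of 144 h below all others. Tests were made with limma, a linear model across the 18232 genes whose mean over the libraries reached 1 TPM, on log2(spike-in normalized TPM + 1), with Benjamini-Hochberg adjusted p under 0.05 as the call. The log2 fold change from 0 h was −0.39 ± 0.30 (SE) at 24 h (adjusted p = 0.42), −1.34 ± 0.30 at 72 h (adjusted p = 0.0106) and −2.50 ± 0.30 at 144 h (adjusted p = 1.73e-05). The median of all tested genes was −0.33, −0.33 and −0.83 in these comparisons, so at 144 h *Idh1* lay 1.67 below it on the log2 scale, at the percentile 1.13 of all genes.

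The fall of *Idh1* did not rest on the spike-in factors. In plain TPM it read 101 and 97.8 at 0 h, 89.9 and 107 after 24 h, 46.2 and 59.1 after 72 h, and 35.2 and 35.0 after 144 h. In plain TPM its log2 fold change was −0.02 ± 0.17 at 24 h, −0.91 ± 0.17 at 72 h (limma adjusted p = 0.00397) and −1.48 ± 0.17 at 144 h (adjusted p = 0.000374). On this scale the 24 h libraries straddled those of 0 h.

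In DKO cells *Idh1* read 285 and 330 spike-in normalized TPM at 0 h, 227 and 163 after 24 h, and 252 and 144 after 72 h. Both treated groups lay below the untreated one, but the replicates of each spread widely. Neither change was called, with log2 fold changes of −0.67 ± 0.30 at 24 h (limma adjusted p = 0.12) and −0.69 ± 0.30 at 72 h (adjusted p = 0.20). With the replicate number as a block within each genotype, the 24 h change was called (adjusted p = 0.0329). In plain TPM *Idh1* was 101 and 139 at 0 h, 102 and 120 after 24 h, and 99.4 and 83.1 after 72 h.

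*Idh1* was therefore the member with the largest difference between genotypes at 72 h. The DKO level exceeded the WT level by 1.20 ± 0.30 on the log2 scale, a fold of 2.30, which was not called in spike-in normalized TPM (limma adjusted p = 0.0823) and was called in plain TPM (0.79 ± 0.17, adjusted p = 0.0345). At 0 h the difference was 0.54 ± 0.30 and at 24 h 0.26 ± 0.30, neither called. The direct test of whether the DKO and WT responses at 72 h differ gave 0.66 ± 0.42 for *Idh1* (limma, unadjusted p = 0.134, not called after adjustment), so a different response was not shown. It was 0.26 without DKO 72 h replicate 1 and 1.06 without DKO 72 h replicate 2.

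The course of *Idh2* differed from that of *Idh1*. Its spike-in normalized TPM in WT cells were 151 and 133 at 0 h, 143 and 141 after 24 h, 124 and 120 after 72 h, and 73.3 and 65.8 after 144 h. The 0 and 24 h libraries overlapped, and those of 144 h lay below all others. The change at 144 h was −1.02 ± 0.25 (limma adjusted p = 0.00329) against an all-gene median of −0.83. In plain TPM it read 71.6 and 63.1 at 0 h, between 76.2 and 99.6 after 24 h, between 75.1 and 80.7 after 72 h, and 68.5 and 65.8 after 144 h. The 24 and 72 h libraries lay above both untreated ones and those of 144 h between them. None of these plain changes was called (0.37, 0.21 and −0.002, each ± 0.18, limma adjusted p = 0.15, 0.44 and 0.995). In DKO cells *Idh2* was 195 and 207 spike-in normalized TPM at 0 h, 147 and 130 after 24 h, and 199 and 150 after 72 h.

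The ratio of *Idh1* to *Idh2* within a library is free of the spike-in factor. In WT cells it was 1.41 and 1.55 at 0 h, between 0.902 and 1.41 after 24 h, between 0.616 and 0.733 after 72 h and between 0.513 and 0.532 after 144 h. The cytosolic form thus went from the higher to the lower of the pair. All 6 treated WT libraries had a lower log2 ratio than both untreated ones, with a mean difference of −1.01 (two-sided exact permutation test, p = 0.0357, the smallest that 28 arrangements allow). The full separation, on which this p rests, was narrow: 0.494 in WT 24 h replicate 2 against 0.498 in WT 0 h replicate 1. Permuted only within a replicate number, which pairs the times, the 16 arrangements gave an exact permutation p of 0.0625, the smallest they allow, so the call was lost; that test was added after the data were seen. The test was no longer passed without either WT 72 h or either WT 144 h library (exact permutation p = 0.0952 each) or without either WT 0 h library (0.143, the smallest then possible), with differences of −1.08 to −0.91. In DKO cells the ratio was 1.46 to 1.60 at 0 h, 1.26 to 1.54 at 24 h and 0.955 to 1.27 at 72 h. At 72 h both DKO libraries lay above both WT libraries, and at 0 and 24 h the genotypes overlapped. Over the 3 shared times the log2 ratio was 0.35 higher in DKO cells, which did not pass the test (two-sided exact permutation within times, p = 0.0648, 216 arrangements). Without WT 24 h replicate 2 the difference was 0.46 with an exact permutation p of 0.0185.

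**Figure D2:**
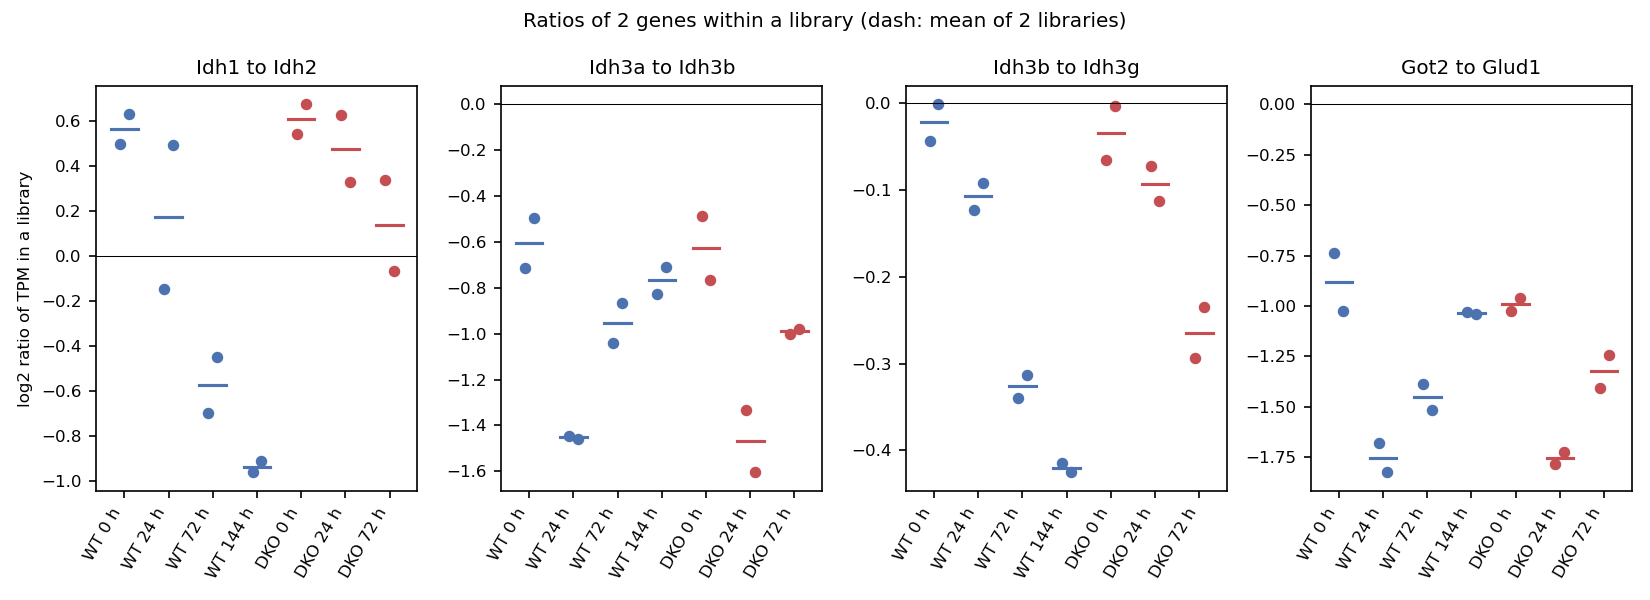
Log2 ratio of plain TPM of 2 genes within a library (points; dashes are group means; WT blue, DKO red). The *Idh1* to *Idh2* ratio declines with time in WT cells to fold values of 0.513 to 0.532, while *Idh3a* to *Idh3b* and *Got2* to *Glud1* drop at 24 h and are higher again later in both genotypes.

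*Idh3a*, *Idh3b* and *Idh3g* encode the α, β and γ subunits of the NAD-dependent isocitrate dehydrogenase, the TCA cycle enzyme, in which the α subunit carries the catalytic activity. *Idh3a* lies on chromosome 9 (chr9:54586334-54604661, forward), *Idh3b* on chromosome 2 (chr2:130279309-130284547, reverse) and *Idh3g* on the X chromosome (chrX:73778963-73786897, reverse). *Idh3b* overlaps *Nop56* on the opposite strand, a gene of up to 597 TPM. The study's methods list no library-strand option for StringTie, which quantified the genes, so the level of *Idh3b* is uncertain.

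*Idh3a* fell within 24 h. Its spike-in normalized TPM in WT cells were 162 and 169 at 0 h, 78.8 and 97.5 after 24 h, 101 and 85.7 after 72 h, and 70.4 and 67.6 after 144 h. All treated libraries lay below both untreated ones. The log2 fold change was −0.91 ± 0.28 at 24 h (limma adjusted p = 0.043), −0.83 ± 0.28 at 72 h (adjusted p = 0.069, or 0.00704 with the replicate block) and −1.25 ± 0.28 at 144 h (adjusted p = 0.00189). In DKO cells *Idh3a* was 268 and 223 at 0 h, 136 and 80.0 after 24 h, and 177 and 141 after 72 h. The DKO change at 24 h was −1.22 ± 0.28 (adjusted p = 0.00595) and that at 72 h was −0.63 ± 0.28 (adjusted p = 0.22, or 0.0422 with the replicate block).

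Plain TPM gave *Idh3a* a dip with a partial return. In WT cells it read 76.9 and 80.3 at 0 h, 55.0 and 52.6 after 24 h, 61.0 and 57.5 after 72 h, and 65.8 and 67.6 after 144 h, with no overlap between any pair of times. The mean was 68.4% of the untreated level at 24 h and 84.8% at 144 h. The plain change was called at 24 h (−0.54 ± 0.08, limma adjusted p = 0.00116) and at 72 h (−0.40 ± 0.08, adjusted p = 0.00718) and not at 144 h (−0.23 ± 0.08, adjusted p = 0.063). In DKO cells the plain mean was 63.3% of the untreated level at 24 h and 79.9% at 72 h.

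*Idh3b* and *Idh3g* did not share the dip of *Idh3a*. *Idh3b* read 266 and 239 spike-in normalized TPM in WT cells at 0 h, 215 and 268 after 24 h, 208 and 156 after 72 h, and 125 and 110 after 144 h. *Idh3g* read 274 and 239 at 0 h, 234 and 285 after 24 h, 263 and 194 after 72 h, and 166 and 148 after 144 h. For both genes the 24 h libraries overlapped those of 0 h, and those of 144 h lay below all others. The change at 144 h was −1.10 ± 0.27 for *Idh3b* (limma adjusted p = 0.00315) and −0.70 ± 0.27 for *Idh3g* (adjusted p = 0.0344), the latter above the all-gene median of −0.83. In plain TPM *Idh3g* was called higher at 24 h (0.38 ± 0.13, adjusted p = 0.0441), whereas *Idh3b* was not (0.30 ± 0.13, adjusted p = 0.10).

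In DKO cells *Idh3b* was 376 and 380 spike-in normalized TPM at 0 h, 342 and 243 after 24 h, and 353 and 277 after 72 h. *Idh3g* was 393 and 380 at 0 h, 360 and 263 after 24 h, and 433 and 326 after 72 h. Neither gene was called at either DKO time, on either scale.

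The subunits can be set against each other within a library. The ratio of *Idh3a* to *Idh3b* was 0.610 to 0.709 in untreated WT cells, 0.364 to 0.367 at 24 h, 0.486 to 0.549 at 72 h and 0.564 to 0.612 at 144 h. In DKO cells it was 0.588 to 0.713, then 0.329 to 0.397, then 0.500 to 0.507. Both genotypes thus had their lowest ratio at 24 h, with no overlap with the other times. The ratio of *Idh3b* to *Idh3g* was 0.971 to 0.999 in untreated WT cells and 0.956 to 0.998 in untreated DKO cells. It was 0.919 to 0.939 in WT and 0.925 to 0.951 in DKO cells at 24 h, 0.790 to 0.805 and 0.816 to 0.850 at 72 h, and 0.745 to 0.750 in WT cells at 144 h. This ratio was thus lower at each later time in both genotypes, with no overlap between times. These ratios are descriptions and were not tested, and both carry the uncertainty in the level of *Idh3b* given above.

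**Figure D3:**
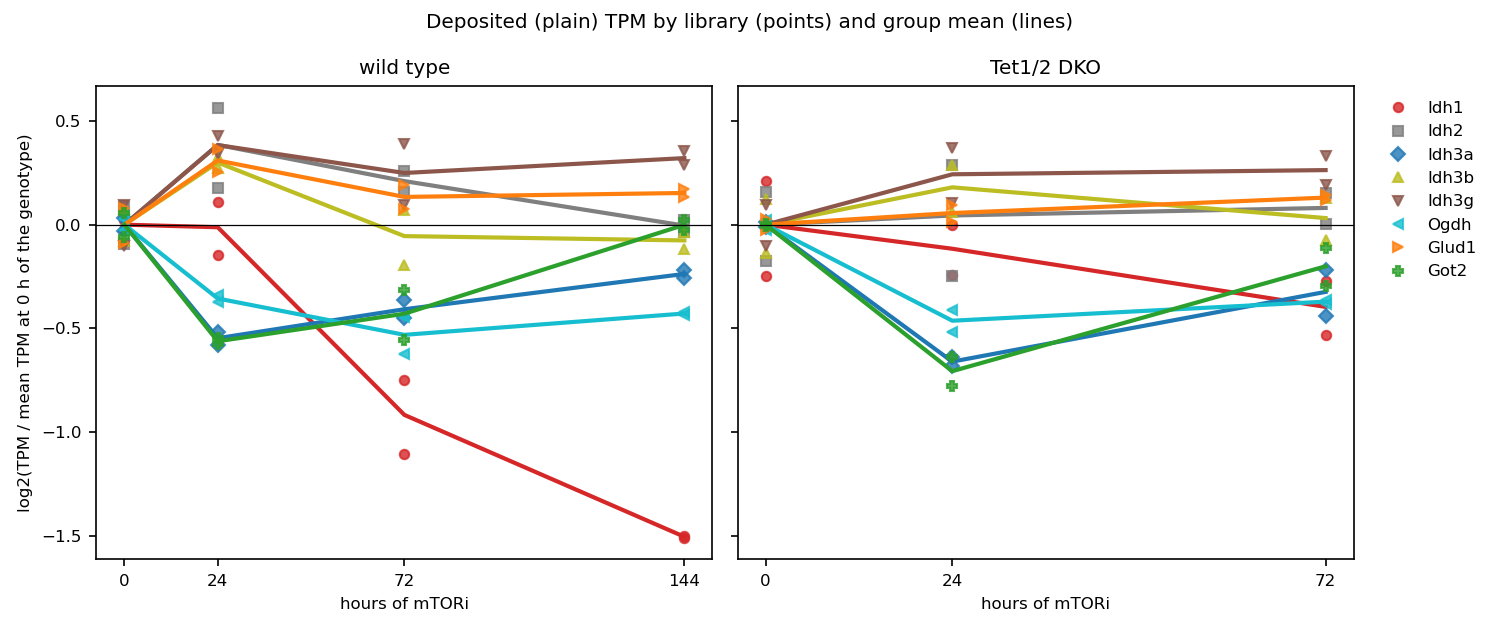
Log2 of plain TPM over the mean at 0 h of the same genotype (y axis) against hours of mTORi (x axis), with points for libraries and lines through group means. In WT cells *Idh1* declines to 35.3% of its untreated mean at 144 h, *Idh3a* and *Got2* are lowest at 24 h in both genotypes, *Ogdh* is lowest at 72 h in WT and at 24 h in DKO cells, and *Idh2*, *Idh3b*, *Idh3g* and *Glud1* stay at or above 94.9% of it.

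*Ogdh* encodes the E1 subunit of the 2-oxoglutarate dehydrogenase complex, which turns α-ketoglutarate into succinyl-CoA (chr11:6291633-6356642, forward). Its spike-in normalized TPM in WT cells were 149 and 143 at 0 h, 78.2 and 98.9 after 24 h, 83.8 and 66.9 after 72 h, and 54.7 and 51.5 after 144 h. All treated libraries lay below both untreated ones. The change was −0.72 ± 0.28 at 24 h (limma adjusted p = 0.11, or 0.0150 with the replicate block), −0.95 ± 0.28 at 72 h (adjusted p = 0.0421) and −1.44 ± 0.28 at 144 h (adjusted p = 0.00082). In DKO cells *Ogdh* was 213 and 186 at 0 h, 120 and 78.3 after 24 h, and 150 and 103 after 72 h. The DKO change was −1.03 ± 0.28 at 24 h (adjusted p = 0.0164) and −0.67 ± 0.28 at 72 h (adjusted p = 0.19, or 0.0329 with the replicate block).

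In plain TPM the fall of *Ogdh* was called at every time in both genotypes. At 24, 72 and 144 h its WT mean was 78.1%, 69.2% and 74.3% of the untreated level, and at 24 and 72 h its DKO mean was 72.5% and 77.3%. The plain log2 changes ran from −0.52 to −0.35, with limma adjusted p from 0.00144 to 0.00867. Unlike *Got2*, it was still called lower in plain TPM at 144 h.

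*Glud1* (chr14:34310727-34345265, forward) read 457 and 514 spike-in normalized TPM in WT cells at 0 h, 392 and 549 after 24 h, 433 and 361 after 72 h, and 277 and 252 after 144 h. The 24 h libraries lay on both sides of the untreated ones, and those of 144 h below all others. The change was −0.06 ± 0.28 at 24 h and −0.29 ± 0.28 at 72 h, neither called, and −0.87 ± 0.28 at 144 h (limma adjusted p = 0.0172), the last within 0.05 of the all-gene median. In plain TPM it was called higher at 24 h (0.31 ± 0.09, adjusted p = 0.0202) and not at 144 h (0.15 ± 0.09, adjusted p = 0.21). In DKO cells *Glud1* was 865 and 703 spike-in normalized TPM at 0 h, 682 and 438 after 24 h, and 831 and 575 after 72 h, with no called change.

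*Got2* encodes the mitochondrial aspartate aminotransferase, which passes the amino group between glutamate and oxaloacetate and yields α-ketoglutarate as part of the malate-aspartate shuttle (chr8:95864134-95888547, reverse). Its spike-in normalized TPM in WT cells were 274 and 253 at 0 h, 122 and 155 after 24 h, 166 and 126 after 72 h, and 135 and 123 after 144 h. All treated libraries lay below both untreated ones and overlapped among themselves. The change was −0.93 ± 0.27 at 24 h (limma adjusted p = 0.0347), −0.86 ± 0.27 at 72 h (adjusted p = 0.056, or 0.00612 with the replicate block) and −1.02 ± 0.27 at 144 h (adjusted p = 0.00564). In DKO cells *Got2* was 426 and 362 at 0 h, 198 and 132 after 24 h, and 314 and 243 after 72 h. The DKO change was −1.27 ± 0.27 at 24 h (adjusted p = 0.00398) and −0.51 ± 0.27 at 72 h (adjusted p = 0.31).

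*Got2* went back to its untreated share of the RNA by 144 h. In plain TPM the WT libraries were 130 and 120 at 0 h, 85.3 and 83.5 after 24 h, 100 and 84.7 after 72 h, and 126 and 123 after 144 h. The 144 h libraries lay between those of 0 h, a mean of 99.9% of the untreated level after 67.7% at 24 h. In DKO cells the plain mean was 61.3% of the untreated level at 24 h and 87.0% at 72 h. The ratio of *Got2* to *Glud1*, which both turn glutamate into α-ketoglutarate in mitochondria, was 0.492 to 0.599 in untreated WT cells, 0.282 to 0.312 at 24 h, 0.350 to 0.383 at 72 h and 0.486 to 0.489 at 144 h. In DKO cells it was 0.492 to 0.515, then 0.291 to 0.303, then 0.378 to 0.422.

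Counting over the set, 2 of 8 enzymes were called lower in WT cells at 24 h (*Idh3a* and *Got2*), where limma called 9.98% of all genes in either direction and 8.73% lower. With the replicate block *Ogdh* joined them, at a background of 25.7% lower. At 72 h 2 of 8 were called lower (*Idh1* and *Ogdh*), against 8.29% of all genes in either direction and 7.60% lower, and 4 of 8 with the block against 25.4% lower. At 144 h all 8 were called lower, at a background of 50.9% called and 50.5% called lower. The median change of the 8 was −0.23, −0.66 and −1.06 at 24, 72 and 144 h, beside −0.33, −0.33 and −0.83 over all tested genes. Both 144 h libraries lay below both 0 h libraries for 8 of 8 enzymes on the spike-in scale, as for 82.1% of all genes, and for 3 of 8 in plain TPM (30.0% of all genes), where *Idh3g* and *Glud1* lay above without overlap.

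The counts at 24 and 72 h depended on single libraries. Leaving out 1 library at a time could take away every call at 24 and 72 h and some of those at 144 h. It could also add calls, and the calls over all genes moved too. The called changes kept their sign. At 24 h *Idh3a* ran from −1.06 to −0.76 and *Got2* from −1.10 to −0.76. At 72 h *Idh1* ran from −1.45 to −1.24 and *Ogdh* from −1.11 to −0.79. Primitive endoderm markers were higher in the 24 h groups, as given above, and their part in the 24 h results was not tested.

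Scaling set how the time courses read. In plain TPM 5 of 8 were called at 24 h (*Idh3a*, *Ogdh* and *Got2* lower, *Idh3g* and *Glud1* higher; 14.1% of all genes lower and 15.8% higher), 4 lower at 72 h (*Idh1*, *Idh3a*, *Ogdh* and *Got2*; 11.4% lower) and 2 lower at 144 h (*Idh1* and *Ogdh*; 11.7% lower). The split of all called genes at 144 h was 84 higher and 9203 lower on the spike-in scale, and 2844 higher and 2134 lower in plain TPM.

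In DKO cells 3 of 8 enzymes were called lower at 24 h (*Idh3a*, *Ogdh* and *Got2*), where 19.2% of all genes were called (18.7% lower), and 0 at 72 h, where 3.66% were (2.95% lower). At 72 h, 3 of the 8 had an unadjusted limma p under 0.05, beside 3588 of the 18232 tested genes. With the replicate block these counts became 5 (with *Idh1* and *Idh2*; 38.1% of all genes lower) and 2 (*Idh3a* and *Ogdh*; 13.2% lower), and in plain TPM they were 3 (13.3% of all genes lower) and 2 (9.06% lower). Leaving out 1 library at a time could take away every call at 24 h or add others, and the calls over all genes moved too. The changes at 24 h then ran from −1.60 to −0.84 for *Idh3a*, −1.33 to −0.72 for *Ogdh* and −1.56 to −0.98 for *Got2*. The responses of DKO and WT cells differed for 0 of 8 enzymes at 24 h and 0 of 8 at 72 h by limma (backgrounds 0.00548% and 0%). In these 2 comparisons 0 members had an unadjusted limma p under 0.05, beside 223 and 181 of all tested genes.

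**Figure D4:**
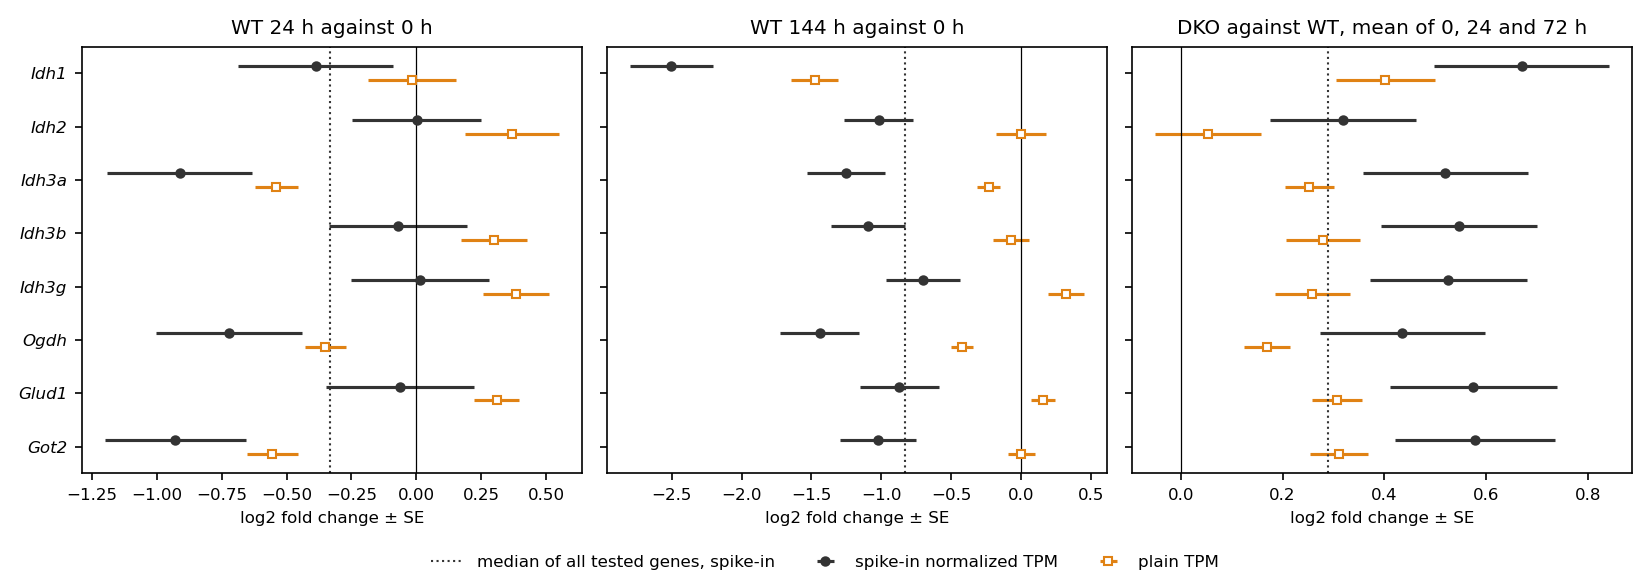
Log2 fold change ± SE of the 8 enzymes from the limma fits, on spike-in normalized TPM (filled circles) and plain TPM (open squares), with the median of all tested genes on the spike-in scale (dotted line). *Idh1* lies farthest below the median at 144 h (−2.50), *Idh3a* and *Got2* at 24 h (−0.91 and −0.93), and every spike-in difference of DKO against WT cells averaged over times lies above 0.

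Between genotypes, most enzymes of the set were higher in DKO cells. Averaged over 0, 24 and 72 h, the difference was called for 6 of 8 enzymes, with limma calling 8.86% of all genes (8.30% higher). *Idh1* was higher by 0.67 ± 0.17 (adjusted p = 0.0221), *Got2* by 0.58 ± 0.16 (adjusted p = 0.0285) and *Glud1* by 0.58 ± 0.16 (adjusted p = 0.0351). *Idh3b* was higher by 0.55 ± 0.15, *Idh3g* by 0.53 ± 0.15 and *Idh3a* by 0.52 ± 0.16, with adjusted p of 0.0326, 0.039 and 0.049. *Ogdh* (0.44 ± 0.16, adjusted p = 0.0866) and *Idh2* (0.32 ± 0.14, adjusted p = 0.14) were not called. The median over the 8 was 0.54, beside 0.29 over all tested genes. The averaged fit takes the libraries of a genotype as independent. The times of a replicate number were handled in parallel, so these SE and adjusted p can be too small.

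This count was not stable. Leaving out 1 library at a time could take away every call or add others, and the calls over all genes moved too. The 8 differences themselves kept their direction in all of these fits, with *Idh1* running from 0.54 to 0.80 and *Idh2* from 0.25 to 0.39. In plain TPM 7 of 8 were called higher, all but *Idh2*, with 11.7% of all genes called higher. The largest there was *Idh1* (0.40 ± 0.10, limma adjusted p = 0.0192), followed by *Got2* (0.31 ± 0.06, adjusted p = 0.0057) and *Glud1* (0.31 ± 0.05, adjusted p = 0.00309). Over all genes the calls were 1514 higher and 102 lower on the spike-in scale and 2126 higher and 1032 lower in plain TPM.

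At single times no enzyme was called by limma on the spike-in scale, with backgrounds of 0.0439%, 0.0439% and 0.329% at 0, 24 and 72 h. Unadjusted limma p were under 0.05 for 4, 0 and 7 of the 8 at these times, beside 1523, 755 and 4193 of the 18232 tested genes. At 0 h both DKO libraries lay above both WT libraries for 8 of 8 enzymes (52.9% of all genes), at 24 h for 0 of 8 (11.1%) and at 72 h for 8 of 8 (62.6%). In plain TPM this held for 6, 4 and 7 of the 8 (24.4%, 21.6% and 39.3% of all genes). For *Idh3a*, *Idh3b*, *Glud1* and *Got2* it held at all 3 times in plain TPM, as for 9.27% of all genes, and on the spike-in scale for 0 of 8 (6.57%). In plain TPM 3 enzymes were called higher in DKO cells at 72 h (3.17% of all genes higher): *Idh1*, *Got2* (0.51 ± 0.10, adjusted p = 0.0258) and *Glud1* (0.39 ± 0.09, adjusted p = 0.0366). Leaving out 1 library at a time moved the spike-in calls at 72 h, both of the enzymes and over all genes. The *Idh1* difference at 72 h then ran from 0.80 to 1.61.

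Some of the enzymes moved alike in plain TPM over the 14 libraries. Pearson's r of log2(plain TPM + 1) was 0.93 between *Idh3a* and *Got2*, 0.85 between *Idh3a* and *Ogdh* and 0.73 between *Ogdh* and *Got2*. It was 0.77 between *Idh3b* and *Idh3g*, 0.77 between *Idh3b* and *Glud1* and 0.77 between *Idh3g* and *Glud1*. *Idh3a* and *Idh3b*, subunits of 1 enzyme, had an r of 0.02, and *Idh1* and *Idh2* one of 0.36. Values of 0.63 to 0.68 also linked *Idh1* with *Idh3b* and *Ogdh* and *Idh2* with *Idh3b* and *Idh3g*, and the lowest r was −0.22, between *Idh2* and *Idh3a*. These values describe 14 libraries that share groups and a common total per library, and those with *Idh3b* carry the uncertainty in its level.

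Among all 18232 tested genes, the profile nearest to each enzyme on this measure was taken, and those for 7 of the 8 enzymes are given. For *Idh1*, the enzyme with the widest range of group means (1.73 on the log2 scale), the 3 nearest included *Fbp2*, a fructose bisphosphatase (r = 0.96), and *Lpl*, lipoprotein lipase (r = 0.95). *Idh3a* was nearest to *Pitpnb*, a phosphatidylinositol transfer protein (r = 0.98), and *Ogdh* to *Lrrc59* (r = 0.98). *Idh3g* was nearest to *Iars2*, the mitochondrial isoleucyl-tRNA synthetase (r = 0.95), and *Got2* to *Cox6c*, a subunit of respiratory complex IV (r = 0.96). *Glud1* was nearest to *Ap1b1*, an adaptor subunit of vesicle coats (r = 0.96), and *Idh2* to *Gas7* (r = 0.89). Each is the highest of many correlations over 14 libraries.

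The other genes that make, carry or use α-ketoglutarate were read from 8 lists of 109 genes, of which 101 were tested. In WT cells at 144 h, 0 of the 101 were called higher and 70 lower, where 50.5% of all genes were called lower, with a median of −0.98 against −0.83 over all genes. In plain TPM 21 were called higher and 21 lower, where 15.6% and 11.7% of all genes were. Averaged over the shared times, 18 of the 101 were called higher in DKO cells, where 8.30% of all genes were, and 1 lower, *Tet2*, one of the deleted genes (−2.17 ± 0.16). In plain TPM 25 were called higher and 11 lower, where 11.7% and 5.66% of all genes were.

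**Figure D5:**
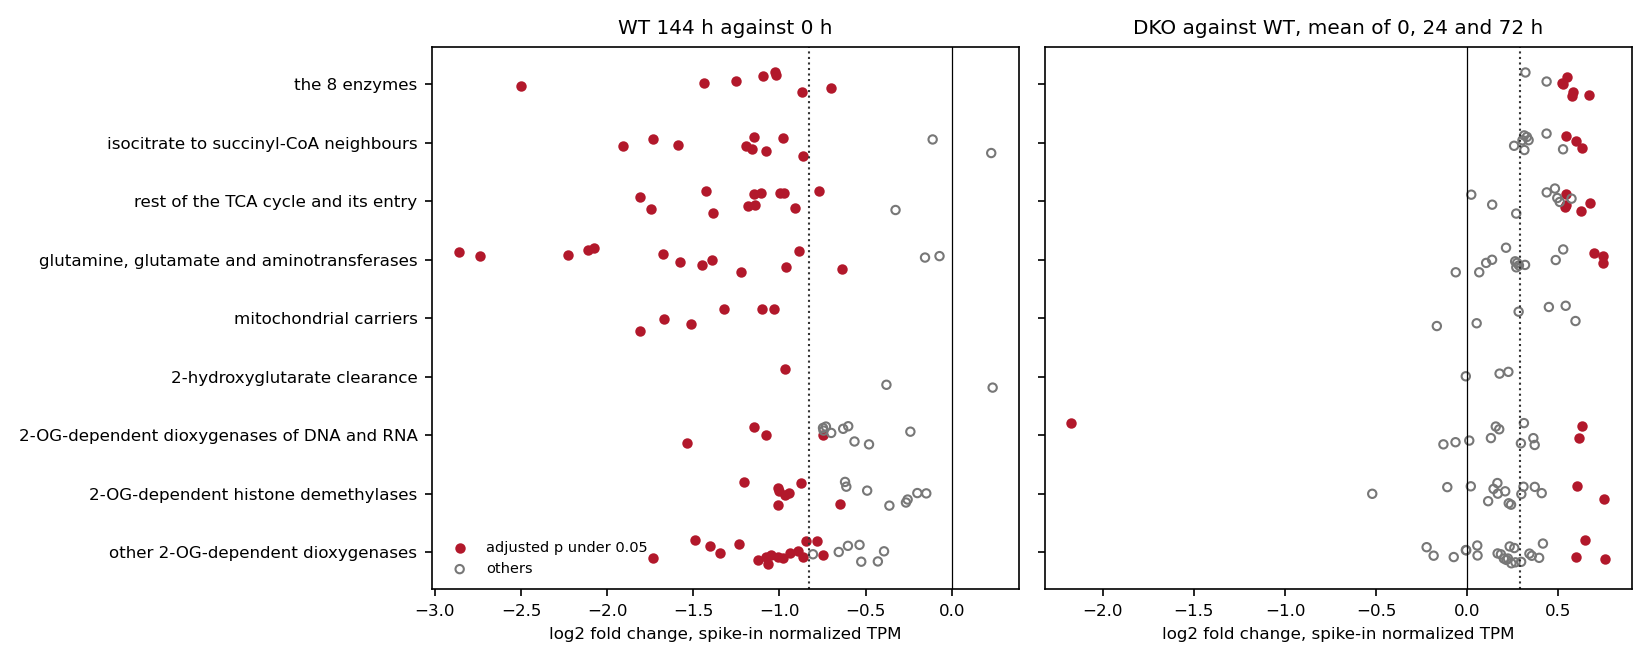
Log2 fold changes on the spike-in scale (x axis) of the 8 enzymes and of the tested genes of 8 lists of related genes (rows), with filled points for genes called by limma, open points for the others and the all-gene median as a dotted line. At 144 h in WT cells the list of glutamine, glutamate and aminotransferase genes reaches lowest, to −2.86, and the 2-hydroxyglutarate clearance list has 1 called gene of 3.

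Around the isocitrate to succinyl-CoA steps, 9 of 11 genes were lower at 144 h (50.5% of all genes), with a median of −1.15. *Cs*, citrate synthase, changed by −1.91 ± 0.28, *Sucla2*, a succinyl-CoA ligase subunit, by −1.73 ± 0.29, and *Mrps36*, a part of the 2-oxoglutarate dehydrogenase complex, by −1.59 ± 0.32. In plain TPM 2 of the 11 were called higher and 3 lower, and these 3 genes changed by −0.88, −0.72 and −0.58. In the rest of the TCA cycle and its entry 12 of 13 were lower, led by the succinate dehydrogenase subunit gene *Sdhd* (−1.81 ± 0.32), *Mdh2*, the mitochondrial malate dehydrogenase (−1.75 ± 0.27), and *Sdhc* (−1.43 ± 0.29), whereas in plain TPM 2 of the 13 were called higher and 4 lower. In DKO cells 3 of 11 and 5 of 13 of these lists were higher (8.30% of all genes), and in plain TPM 4 and 9, with 0 and 1 lower. They included *Suclg1* (0.63 ± 0.17), *Suclg2* (0.54 ± 0.16), *Dlat* of the pyruvate dehydrogenase complex (0.67 ± 0.18), *Me2*, a malic enzyme (0.62 ± 0.17), and *Mdh2* (0.54 ± 0.16).

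Among glutamine, glutamate and aminotransferase genes 13 of 15 were lower at 144 h (50.5% of all genes), with a median of −1.45. *Psat1*, the phosphoserine aminotransferase that forms α-ketoglutarate during serine synthesis, changed by −2.86 ± 0.33, more than any of the 8 enzymes. *Gpt2*, the mitochondrial alanine aminotransferase, changed by −2.74 ± 0.32 and *Abat*, the GABA aminotransferase, by −2.23 ± 0.32, and all 3 were called in plain TPM too (−1.84, −1.73 and −1.28), where 2 of the 15 were higher and 8 lower. In DKO cells 3 of 15 were higher (8.30% of all genes; in plain TPM 2 higher and 1 lower), among them *Gls2*, a glutaminase (0.75 ± 0.18), and *Oat*, ornithine aminotransferase (0.70 ± 0.16).

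All 6 tested mitochondrial carriers of α-ketoglutarate, citrate, aspartate and glutamate were lower at 144 h (50.5% of all genes), led by *Slc25a22*, a glutamate carrier (−1.81 ± 0.37), and the aspartate-glutamate carriers *Slc25a12* (−1.67 ± 0.31) and *Slc25a13* (−1.51 ± 0.31). In plain TPM 3 of the 6 were called lower and 0 higher. Averaged over times, 0 of the 6 were called between genotypes by limma on the spike-in scale (8.86% of all genes), and in plain TPM 3 were called higher and 2 lower in DKO cells (11.7% and 5.66% of all genes). Of the 3 tested genes that clear 2-hydroxyglutarate, 1 was called lower at 144 h (50.5% of all genes), and in plain TPM 1 was called higher and 0 lower (15.6% and 11.7%).

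The dioxygenases and demethylases that use α-ketoglutarate came last. Among dioxygenases of DNA and RNA 4 of 13 were lower at 144 h, against 50.5% of all genes, among them *Tyw5* (−1.54 ± 0.34), *Alkbh7* (−1.15 ± 0.32) and *Alkbh4* (−1.08 ± 0.30), and *Tet1* was not (−0.24 ± 0.29). In plain TPM 3 of the 13 were called higher and 1 lower, and *Tet1* was higher at 144 h (0.79, adjusted p = 0.000287). Among histone demethylases 8 of 16 were lower, a share near that of all genes, led by *Kdm4a* (−1.20 ± 0.31), *Kdm2b* (−1.01 ± 0.29) and *Phf8* (−1.01 ± 0.30), but in plain TPM 9 of the 16 were called higher (15.6% of all genes) and 0 lower, with a median of 0.38, and these 3 were not called. Of the other dioxygenases 17 of 24 were lower (again beside 50.5%), with *Ogfod1* (−1.74 ± 0.35), *Phyh* (−1.49 ± 0.29) and *P3h1* (−1.40 ± 0.32) first, and in plain TPM 2 were called higher and 2 lower.

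In DKO cells *Tet3* was higher than in WT cells by 0.61 ± 0.19 (limma adjusted p = 0.0475), and *Alkbh2* by 0.63 ± 0.19. Of the histone demethylases *Kdm7a* (0.75 ± 0.21) and *Kdm6b* (0.60 ± 0.16) were higher, and of the other dioxygenases *Egln1*, the prolyl hydroxylase that marks HIF-1α (0.76 ± 0.20), *Phyh* (0.65 ± 0.17) and *Ogfod3* (0.60 ± 0.18). In all, 2 of 13 DNA and RNA dioxygenases, 2 of 16 histone demethylases and 3 of 24 other dioxygenases were called higher (8.30% of all genes). Only *Tet2* was called lower. The medians of these 3 lists lay between 0.18 and 0.23, below the all-gene median of 0.29. In plain TPM the medians of the DNA and RNA dioxygenases, the histone demethylases and the other dioxygenases were −0.08, −0.05 and −0.03. On that scale 2, 2 and 3 of their genes were called higher (11.7% of all genes) and 3, 2 and 2 lower (5.66%).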

How the data were processed

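RNA-seq was measured in 14 libraries. Per the labels, the authors trimmed reads with cutadapt 2.4, aligned them with STAR 2.7.3a (mm10) and quantified genes with StringTie 2.0, and deposited TPM per gene. Entries of 1 gene identifier were summed. The deposited TPM are not spike-in normalized (0 ERCC entries), so each library was multiplied by the median ratio of the study's normalized table (its first 1999 entries) to the deposited TPM, over genes of at least 1 TPM. That table served for these factors only. Factors come from the study's ERCC normalization and cannot be recomputed here.

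Log2(TPM + 1) of 18232 genes (mean of at least 1) was fitted with limma 3.58.1 (empirical Bayes with trend; 7 groups; Benjamini-Hochberg over all genes). The scripts were tested on simulated data. Replicate numbers pair libraries within a genotype, since the study's reporting statement says that time points of a replicate were processed in parallel; deviations of same-numbered libraries correlated at 0.222 to 0.341 within DKO (3 of 3 pairs over 0.1) and 0.0622 to 0.398 within WT (5 of 6). The reported fit has no block. Alternatives were plain TPM, median centring, another pseudocount (0.1), other filters, other samples in the fit, no trend, blocks and leaving out each library.

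The members, lists and tests were chosen with earlier results of these data known. Named were the 8 members and, of each list, the 3 called genes with the largest change in WT cells at 144 h and in DKO against WT cells averaged over times, and the gene nearest in profile to each member; some genes that these rules pick are not reported here. *Tmlhe* of these lists was not analysed here, and 7 genes were below the filter. Columns used are per-sample TPM; no protein sequence was used here.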

Additional observations from a re-analysis of the deposited data

How the results depend on the processing

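In plain TPM the number of enzymes called was 5 in WT cells at 24 h (2 on the spike-in scale), 4 at 72 h (2), 2 at 144 h (8), 2 in DKO cells at 72 h (0) and 3 in DKO against WT cells at 72 h (0). With median-centred values it was 4 in WT cells at 72 h, 3 at 144 h and 4 in DKO cells at 72 h. Both remove the shift of all genes that the spike-in factors carry, and so some changes near the all-gene median took the opposite sign. In plain TPM these were, in WT cells at 24 h, *Idh3b* (0.30) and *Glud1* (0.31). At 72 h they were *Idh2* (0.21), *Idh3g* (0.24) and *Glud1* (0.13), and at 144 h *Idh3g* (0.32), *Glud1* (0.15) and *Got2* (9.21e-05). In DKO cells they were, at 24 h, *Idh2* (0.029), *Idh3b* (0.18), *Idh3g* (0.24) and *Glud1* (0.056), and at 72 h *Idh2* (0.087), *Idh3b* (0.034), *Idh3g* (0.26) and *Glud1* (0.13). With median-centred values they were *Idh3b* (0.20) and *Glud1* (0.21) in WT cells at 24 h, *Idh2* (0.075) and *Idh3g* (0.11) at 72 h and *Idh3g* (0.13) at 144 h, *Idh3b* (0.071) and *Idh3g* (0.13) in DKO cells at 24 h, *Idh3g* (0.053) at 72 h, and *Idh2* in DKO against WT cells at 72 h (−0.00833). None of these passed the threshold on both scales.

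Without a filter on low values the counts were 0 in WT cells at 24 h, 0 at 72 h and 0 in DKO against WT cells averaged over times (6 in the report), where adjusted p ran from 0.0667 to 0.0997 for the 6 enzymes. With only the groups compared in the fit the counts were 4 in WT cells at 72 h, 0 in DKO cells at 24 h and 2 averaged between genotypes. Without the mean-variance trend they were 0, 1 and 1 in WT cells at 24 h, in WT cells at 72 h and averaged between genotypes. The cause of these shifts was not tested. A pseudocount of 0.1, a minimum mean of 5 TPM and the replicate block across all libraries left every count of enzymes within 1.5 times.

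Over all genes the calls also moved. In WT cells at 24 h they were 227 higher and 1592 lower on the spike-in scale, 2883 and 2563 in plain TPM, 2484 and 3122 median-centred, 153 and 910 without a filter, 520 and 3610 with only the groups compared and 817 and 4693 when each genotype had its own replicate block. At 72 h they were 127 and 1385, and in the same order 2301 and 2080, 1867 and 2904, 87 and 639, 507 and 4724, and 519 and 4633. At 144 h median-centred values gave 2497 and 2778. In DKO cells at 24 h the 92 higher and 3408 lower became 2109 and 2426 in plain TPM, 2051 and 2996 median-centred, 12 and 519 with only the groups compared and 356 and 6943 with the block, and at 72 h the 130 and 537 became 3145 and 1651 in plain TPM, 2096 and 3025 median-centred and 974 and 2403 with the block. Averaged between genotypes, 1514 higher and 102 lower became 1331 and 1524 median-centred, 627 and 106 without a filter and 943 and 81 with only the groups compared. At 72 h between genotypes, 55 and 5 became 578 and 154 in plain TPM, 144 and 164 median-centred, 22 and 4 with a pseudocount of 0.1, 95 and 6 at a minimum mean of 5 TPM and 252 and 26 with only the groups compared.

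With the replicate block within each genotype the counts were 4 in WT cells at 72 h, 5 in DKO cells at 24 h and 2 in DKO cells at 72 h, and the block within genotype moved no other count of enzymes by over 1.5 times. Since same-numbered libraries of the 2 genotypes deviated oppositely at each time (r from −0.50 to −0.29), the numbers were also crossed between genotypes, which gave 4 enzymes in DKO against WT cells at 72 h and 7 averaged over times, and over all genes 2136 higher and 81 lower at 72 h and 4808 higher and 337 lower averaged (55 and 5, and 1514 and 102, without).

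Leaving out each library in turn moved the counts between 0 and 3 in WT cells at 24 h, 0 and 4 at 72 h, 4 and 8 at 144 h, 0 and 5 in DKO cells at 24 h, 0 and 5 in DKO against WT cells at 72 h, and 0 and 8 averaged over times. The *Idh1* to *Idh2* log2 ratio ranged from −1.20 to −0.91 in treated against untreated WT cells, with exact permutation p from 0.0476 to 0.143 (the latter without either WT 0 h library, the smallest then possible; −1.01 with p = 0.0625 for the replicate block, a permutation within replicate numbers added after the data were seen), and from 0.25 to 0.46 in DKO against WT cells. Signs turned for uncalled values only. In WT cells at 24 h these ranged from −0.089 to 0.092 for *Idh2*, −0.23 to 0.086 for *Idh3b*, −0.13 to 0.16 for *Idh3g* and −0.30 to 0.18 for *Glud1*, and at 72 h from −0.40 to 0.036 for *Idh3g*. In DKO cells at 72 h they ranged from −0.25 to 0.16 for *Idh3g* and −0.44 to 0.091 for *Glud1*. In DKO against WT cells at 24 h they ranged from −0.048 to 0.57 for *Idh1*, −0.13 to 0.051 for *Idh2*, −0.13 to 0.63 for *Idh3a*, −0.17 to 0.45 for *Ogdh*, −0.084 to 0.55 for *Glud1* and −0.055 to 0.52 for *Got2*. The response difference at 24 h for *Idh1* ranged from −0.59 to 0.030. TPM keep no depth, so no counting limit could be set for any value.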
